A study of Homo sapiens with 18 samples.

Results

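The genes that move and store zinc were followed in LNCaP, a human cell line from a prostate cancer metastasis that responds to androgen. They were the ZIP importers (SLC39A genes), the ZnT exporters (SLC30A genes) and the metallothioneins MT1A, MT1E, MT1F, MT1G, MT1H, MT1M, MT1X and MT2A. Members were taken by gene symbol, from families chosen with earlier results of these data known. This gave 32 of the 60649 genes counted: 14 ZIP genes, 10 ZnT genes and 8 metallothioneins. After a filter on low counts, 22 of the 32 were tested, namely 11 ZIP genes, 7 ZnT genes and 4 metallothioneins.

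ZIP proteins carry zinc into the cytosol from outside the cell or from organelles, and ZnT proteins carry it out of the cytosol or into vesicles. Metallothioneins are small cysteine-rich proteins that bind zinc, copper and cadmium, and their genes are switched on by the zinc-sensing factor MTF1 at metal response elements. The secretory cells of the healthy prostate hold very high zinc, which blocks citrate oxidation so that citrate can be secreted, and prostate cancer cells are known for having lost this zinc store.

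RNA was sequenced from 18 libraries in 6 groups of 3, which the labels call biological triplicates. All cells were transfected with a pool of siRNAs, kept in medium without androgen from the next day, treated 48 h after transfection, and collected after 48 h of treatment. The groups were UPF1 siRNA with 5 nM R1881, a synthetic androgen; UPF1 siRNA with vehicle (ethanol); RCOR1 siRNA with R1881; RCOR1 siRNA with vehicle; non-targeting control siRNA with R1881; and control siRNA with vehicle. UPF1 is the helicase of nonsense-mediated decay and RCOR1 (CoREST) the scaffold of a histone deacetylase and demethylase complex. Each gene was targeted with 1 siRNA pool in 1 cell line, so the values hold for those.

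Library totals lay between 10299607 and 17338235 counts. UPF1 was at 17.6% of the control siRNA level in UPF1 siRNA cells with R1881 and at 16.97% with vehicle, and RCOR1 was at 15.7% and 12.9% in RCOR1 siRNA cells. The summed level of the 10 luminal prostate markers was 11715 to 15107 CPM (counts per gene scaled to a common library size) in R1881 libraries and 6234 to 7459 CPM in vehicle libraries. Of the markers of other cell types, TP63 (basal cells), COL1A2 (stroma), CD3E (T cells), CDH5 (endothelium) and CHGA (neuroendocrine cells) had 0 counts in all libraries, but others were present and moved with the groups. Summed over its list, the neuroendocrine level (2 of 5 genes passed) was 23.8 to 25.8 CPM in UPF1, 10.9 to 12.05 CPM in RCOR1 and 12.5 to 13.96 CPM in control siRNA cells with R1881, and 24.5 to 28.5, 20.2 to 24.8 and 20.1 to 24.5 CPM with vehicle. In it, SYP averaged 17.4, 3.83 and 4.38 CPM with R1881 and 10.5, 2.54 and 2.21 CPM with vehicle, and ENO2 7.41, 7.51 and 8.98 CPM with R1881 and 15.4, 20.1 and 19.4 CPM with vehicle. In the basal list 2 of 5 genes passed, DSC3 and KRT14. With R1881 it had 16.7 to 19.9 CPM in UPF1, 16.6 to 20.9 in RCOR1 and 11.5 to 14.8 in control siRNA cells. With vehicle it had 24.5 to 29.8, 14.1 to 19.8 and 11.6 to 17.4 CPM. The stroma list (2 of 6, COL1A1 and COL3A1) had 3.98 to 8.01 CPM with R1881 and 12.4 to 23.4 CPM with vehicle over the 3 arms. In the endothelium list 1 of 4 genes passed, VWF. With R1881 that list had 12.9 to 15.4 CPM in UPF1, 5.35 to 6.16 in RCOR1 and 3.51 to 4.90 in control siRNA cells. With vehicle it had 25.3 to 26.6, 6.43 to 8.66 and 10.1 to 14.01 CPM. The immune list had at most 1.36 CPM in any library, and the part of these lists in the results was not tested. Genes with under 40% GC differed between libraries of the same group. Their median level relative to all libraries was lowest in replicates 1 and 2 of UPF1 siRNA with R1881 (-0.58 and -0.40 on the log2 scale). Next came control siRNA with R1881 replicate 1 (-0.31) and control siRNA with vehicle replicate 2 (-0.30). Calls of members that use the group of UPF1 siRNA with R1881 are given with and without its replicates 1 and 2. Leaving out both leaves 1 library in that group, so a call can also be lost through lower power.

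The promoters of 3 metallothionein genes of the cluster on chromosome 16 are shown because metal response elements are the known sites of their control by zinc. The 250 bases before the RefSeq start (GRCh38.p14, plus strand) are printed 5′ to 3′, with capitals marking matches on either strand to the core of the metal response element, TGCACNC or TGCGCNC. The windows are chr16:56608334-56608583 for MT2A, chr16:56682220-56682469 for MT1X and chr16:56669564-56669813 for MT1H, and overlapping matches were allowed.
MT2A: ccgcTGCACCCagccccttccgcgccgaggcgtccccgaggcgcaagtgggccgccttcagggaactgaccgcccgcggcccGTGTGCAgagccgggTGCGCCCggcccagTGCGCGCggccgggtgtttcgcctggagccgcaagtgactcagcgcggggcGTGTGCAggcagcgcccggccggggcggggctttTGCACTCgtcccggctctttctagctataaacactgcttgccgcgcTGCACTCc
MT1X: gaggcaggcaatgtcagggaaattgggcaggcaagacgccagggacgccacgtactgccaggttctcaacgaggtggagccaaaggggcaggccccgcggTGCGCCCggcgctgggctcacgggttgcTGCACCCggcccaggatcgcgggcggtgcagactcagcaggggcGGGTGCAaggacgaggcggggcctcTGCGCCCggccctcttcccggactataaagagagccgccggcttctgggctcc
MT1H: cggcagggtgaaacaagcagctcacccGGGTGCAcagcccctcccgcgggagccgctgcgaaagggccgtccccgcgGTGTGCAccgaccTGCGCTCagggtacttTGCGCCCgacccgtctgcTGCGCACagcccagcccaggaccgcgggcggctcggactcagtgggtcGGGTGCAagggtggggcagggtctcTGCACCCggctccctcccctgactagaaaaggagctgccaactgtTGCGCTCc
MT2A held 7 matches, MT1X 4 and MT1H 8, where 24.7% of all 27305 RefSeq promoters of this length held at least 1, 0.366% at least 4 and 0.0586% at least 6. MT2A and MT1X had counts in every library, whereas MT1H, the gene with 8 matches, had 0 counts in all 18. Of the 24 members with a promoter entry, SLC30A2 held 3 matches, SLC30A3 held 2, and SLC39A3, SLC39A6, SLC30A1, SLC30A4 and SLC30A6 held 1 each. SLC30A1, the plasma membrane zinc exporter, is a known MTF1 target. These matches describe the letters of a short window only.

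Per length of exon, SLC30A4 had the highest mean of the zinc transporters over the 18 libraries. SLC30A4 (ZnT4, which fills vesicles with zinc; chr15:45479611-45522807, GRCh38) averaged 144 CPM per kilobase of exon (RPKM) over the 18 libraries, and it gave 62.4% to 73.5% of the summed RPKM of the ZnT genes in each library. The next ZnT genes were SLC30A9, an exporter of mitochondrial zinc, with 20.0 RPKM and SLC30A5, a partner of SLC30A6 in the early secretory pathway, with 12.9 RPKM. SLC30A6 (11.5 RPKM), SLC30A7 (11.02 RPKM) and SLC30A1 (9.04 RPKM) followed, with library ranges that overlapped each other and that of SLC30A5. Among importers, SLC39A6 (ZIP6, a plasma membrane importer first known as an oestrogen-induced gene of breast cancer cells) averaged 92.4 RPKM, SLC39A9 (ZIP9, also described as a membrane steroid receptor) 53.1 RPKM, and SLC39A7 (ZIP7, which releases zinc from the endoplasmic reticulum) 35.9 RPKM. In UPF1 siRNA cells with R1881, SLC39A6 (140 ± 13.7 RPKM) had a higher mean than SLC30A4 (126 ± 15.9 RPKM; SD, n = 3), by less than their spread. The ranges over libraries of SLC39A6 (47.1 to 154 RPKM) and SLC39A9 (42.9 to 64.7 RPKM) overlapped. SLC39A4, the importer of the gut, was the lowest ZIP gene that passed, at 1.66 RPKM.

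Metallothionein RNA was modest per length beside the leading transporters. MT2A averaged 11.5 RPKM, MT1G 11.4 RPKM, MT1X 8.63 RPKM and MT1F 1.58 RPKM, with overlapping ranges for MT2A, MT1G and MT1X. The lengths used were all annotated exon bases joined: 1299 for MT2A, 750 for MT1G, 1773 for MT1X and 1889 for MT1F. These levels and their order therefore depend on the annotated lengths. MT1A, MT1E, MT1H and MT1M had 0 counts in all libraries, as had SLC30A8, the zinc transporter of insulin granules; a count of 0 allows up to 0.173 to 0.291 CPM per library (3 counts) and 0.0123 CPM over all libraries. The remaining genes below the filter had few reads: at most 11 in any library for SLC39A2, 9 for SLC30A2 and for SLC30A3, 3 for SLC39A5 and 1 for SLC39A12. Of 10 further metallothionein loci outside the rule, MT3, MT1DP and MT1XP1 had a few reads, and none passed the filter. Reads of near-identical metallothionein copies can be assigned to the wrong copy, so single MT1 levels are uncertain. SLC39A1 is uncertain as well, since 2061 of its 3388 exonic bases are shared with another annotated gene on its strand and 280 with CREB3L4 on the other, and the strand setting of the counting is not given in the sources used here. For the same reason a part of the reads of other members may come from a gene on the opposite strand: SLC39A9 shares 373 of 7136 exonic bases with ERH, SLC39A7 shares 244 of 2845 with RXRB, and SLC30A4 shares 215 of 8073 with HMGN2P46.

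**Figure D1:**
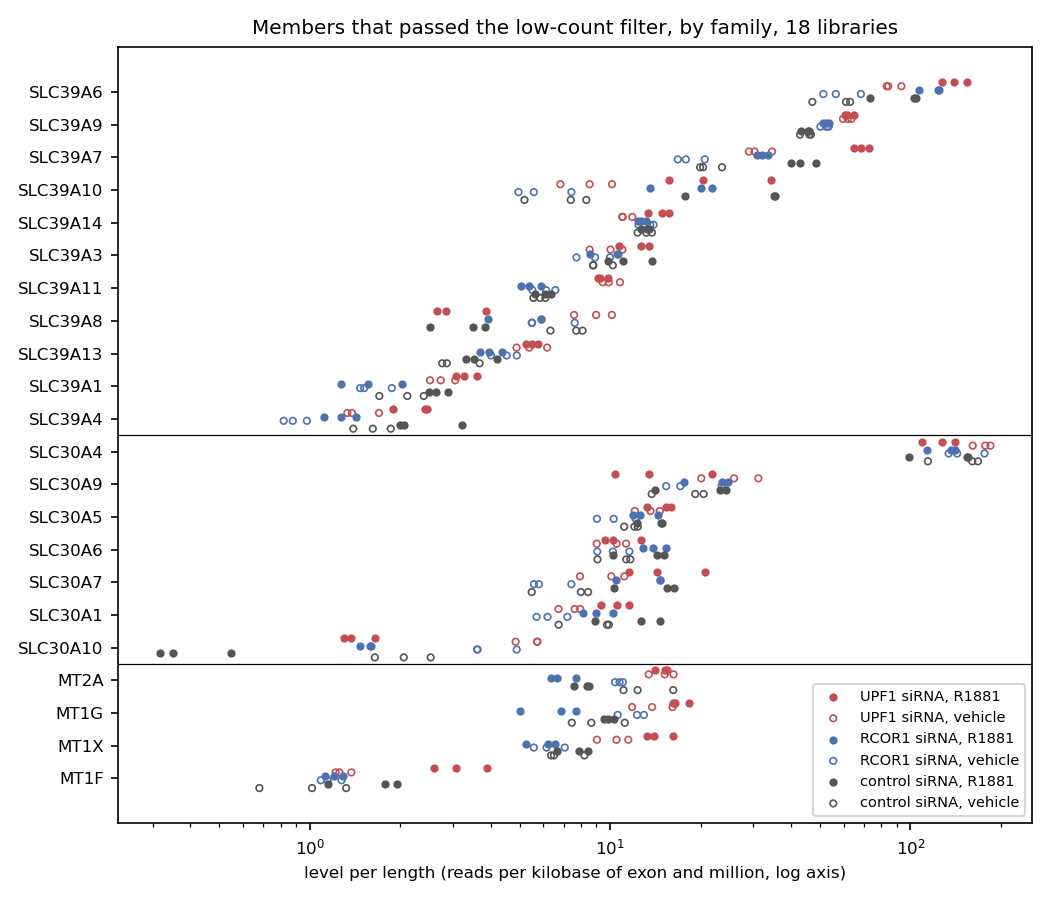
Level per length (RPKM, log axis) of the 22 members that passed the filter, 1 point per library, in order of mean level within each family; filled points are R1881 and open points vehicle, red for UPF1, blue for RCOR1 and grey for control siRNA. SLC30A4 and SLC39A6 lie highest (means 144 and 92.4 RPKM), and MT1F and SLC39A4 lowest of their families (1.58 and 1.66 RPKM).

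The first question was what androgen does to zinc handling genes in each siRNA arm. In control siRNA cells R1881 went with higher levels of the importers SLC39A10, SLC39A7, SLC39A6 and SLC39A4, of the exporter SLC30A7 and of MT1F, and with lower levels of SLC39A8, SLC30A10 and MT2A. In edgeR's quasi-likelihood test with Benjamini-Hochberg adjustment over 15390 genes, 6 of the 22 members were higher and 3 lower at an adjusted p below 0.05, where 20.1% of all genes were called higher and 17.6% lower. In UPF1 siRNA cells 9 were higher and 4 lower (21.6% and 20% of all genes), and in RCOR1 siRNA cells 6 were higher and 3 lower (16.3% and 14.9%). The share of members called, 40.9% in control, 59.1% in UPF1 and 40.9% in RCOR1 siRNA cells, stood beside 37.7%, 41.6% and 31.2% of all genes. Scaling by library size alone moved the median of all genes by -0.22 in control and -0.17 in RCOR1 siRNA cells. The split was then 4 higher and 5 lower in control and 4 higher and 6 lower in RCOR1 siRNA cells. The share of all genes called under that scaling is not given here, so the split is not read as a result about the members.

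SLC39A10 and SLC39A6, importers of the plasma membrane, rose with R1881 in all 3 arms. SLC39A10 (ZIP10, which pairs with ZIP6 at the cell surface; chr2:195575977-195737702) had 108, 141 and 238 CPM with R1881 and 47.2, 59.1 and 70.2 CPM with vehicle in UPF1 siRNA cells. It had 93.6, 139 and 151 CPM against 34.3, 38.5 and 51.4 CPM in RCOR1 siRNA cells, and 123, 245 and 243 CPM against 57.6, 35.9 and 51.2 CPM in control siRNA cells. In every arm the lowest R1881 library lay above the highest vehicle library, although the R1881 libraries of 1 group differed widely among themselves. The log2 fold changes were 1.46 ± 0.31 (SE), 1.63 ± 0.32 and 2.08 ± 0.32 in UPF1, RCOR1 and control siRNA cells, with edgeR adjusted p of 0.0014, 0.00081 and 7.1e-05. Like SLC39A10, its partner SLC39A6 separated the treatments in each arm. SLC39A6 had 468, 512 and 569 CPM with R1881 and 307, 311 and 343 CPM with vehicle in UPF1 siRNA cells, 392, 454 and 457 against 208, 189 and 252 CPM in RCOR1 siRNA cells, and 270, 379 and 384 against 225, 174 and 232 CPM in control siRNA cells. Its log2 fold changes were 0.69 ± 0.14, 1.01 ± 0.14 and 0.71 ± 0.14, all called by edgeR.

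SLC39A7, the route of zinc out of the endoplasmic reticulum, also rose in every arm, and its libraries were close together. SLC39A7 had 207, 195 and 185 CPM with R1881 and 98.5, 86.1 and 82.5 CPM with vehicle in UPF1 siRNA cells. In RCOR1 siRNA cells it had 95.2, 87.5 and 90.8 CPM with R1881 and 50.8, 58.8 and 47.8 CPM with vehicle, and in control siRNA cells 137, 114 and 122 CPM with R1881 and 56.7, 67.1 and 58.0 CPM with vehicle. The groups did not overlap within any arm, and the log2 fold changes were 1.14 ± 0.10, 0.80 ± 0.10 and 1.04 ± 0.10 (edgeR adjusted p 2.3e-07, 1.6e-05 and 6.4e-07). SLC39A4 was called higher in UPF1 siRNA cells (log2 fold change 0.61 ± 0.18) and in control siRNA cells (0.58 ± 0.18), with 0.51 ± 0.20 in RCOR1 siRNA cells (edgeR adjusted p 0.063). These SLC39A4 calls were not firm: without control R1881 replicate 1 the control siRNA value was 0.27 (edgeR adjusted p 0.25), and without both replicates 1 and 2 of UPF1 siRNA with R1881 the UPF1 siRNA value was 0.33 (0.47). The control call was also lost without control vehicle replicate 1 or 3, and the UPF1 siRNA call without UPF1 vehicle replicate 2 or 3 or UPF1 R1881 replicate 1 or 2 alone.

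SLC39A8 (ZIP8), which takes up manganese and cadmium as well as zinc, went the other way. SLC39A8 (chr4:102251041-102431258) had 17.2, 18.5 and 25.1 CPM with R1881 and 49.2, 58.2 and 65.7 CPM with vehicle in UPF1 siRNA cells, a log2 fold change of -1.51 ± 0.21. In control siRNA cells it had 16.3, 22.7 and 24.8 CPM with R1881 and 52.5, 41.0 and 49.97 CPM with vehicle (-1.17 ± 0.21, edgeR adjusted p 0.00027). In RCOR1 siRNA cells the treatments overlapped, with 25.4, 38.2 and 38.0 CPM against 35.6, 35.5 and 49.4 CPM, and the log2 fold change of -0.25 ± 0.20 was not called. The difference between the RCOR1 and the control siRNA response was 0.92 ± 0.29, with an edgeR adjusted p of 0.20 over all genes. For the other importers the log2 fold changes of SLC39A1, SLC39A3, SLC39A9, SLC39A11 and SLC39A13 lay between -0.16 and 0.36 over the 3 arms with none called, and SLC39A14, an importer of zinc, iron and manganese, was called in UPF1 siRNA cells alone (0.38 ± 0.08, and 0.22 with an adjusted p of 0.19 in edgeR without replicates 1 and 2). SLC39A9, the proposed membrane steroid receptor, had log2 fold changes of 0.01, 0.01 and -0.01 with SE of 0.06.

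**Figure D2:**
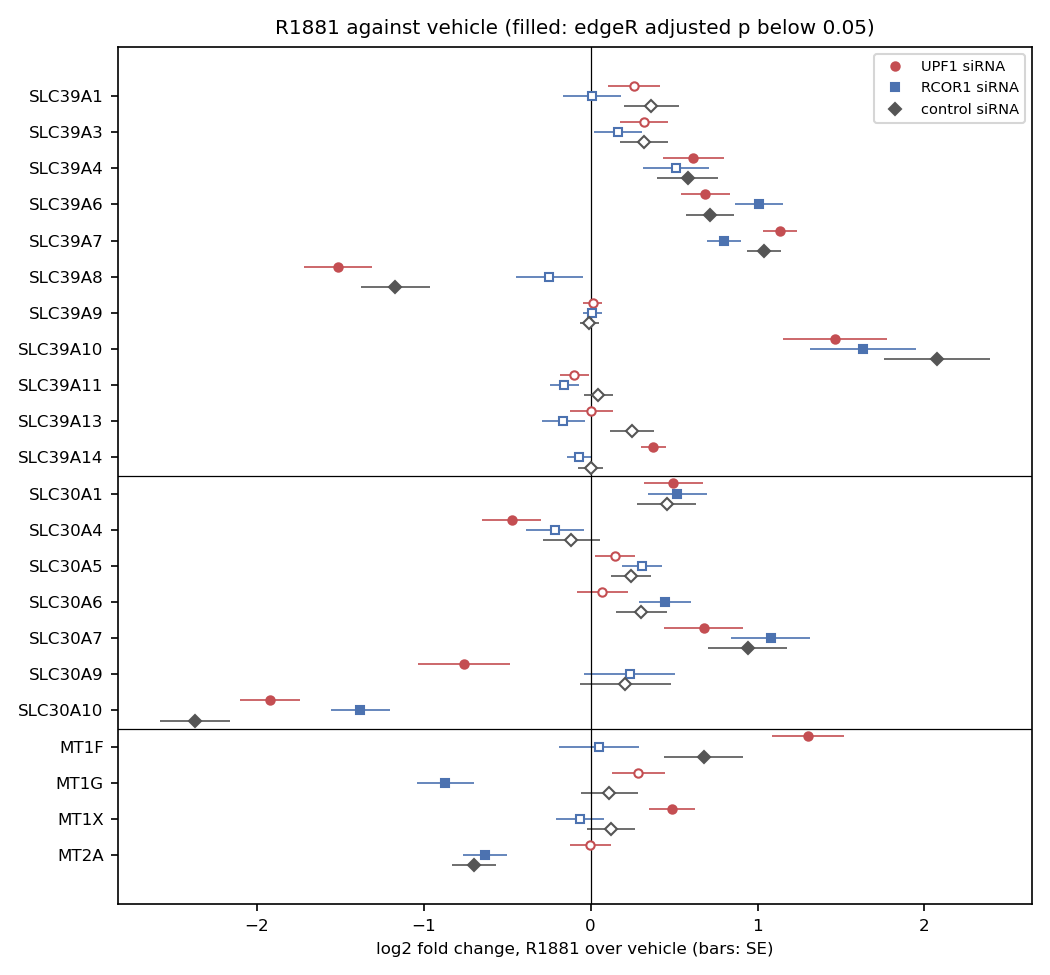
Log2 fold change of R1881 over vehicle (points, with SE as bars) for the 22 members in UPF1 (circles), RCOR1 (squares) and control siRNA cells (diamonds); filled symbols had an edgeR adjusted p below 0.05, and lines part ZIP, ZnT and metallothionein genes. SLC39A10 lies farthest to the right (2.08 in control siRNA cells) and SLC30A10 farthest to the left (-2.37).

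Of the members that passed the filter, the largest change with R1881 in control siRNA cells was the fall of SLC30A10 (ZnT10), known chiefly as the cell's manganese exporter. SLC30A10 (chr1:219685427-219958647) had 7.49, 7.91 and 9.53 CPM with R1881 and 28.0, 32.9 and 33.1 CPM with vehicle in UPF1 siRNA cells. It had 8.51, 9.12 and 9.20 CPM against 20.8, 20.9 and 28.2 CPM in RCOR1 siRNA cells, and 2.02, 1.83 and 3.16 CPM against 11.9, 9.502 and 14.6 CPM in control siRNA cells. All R1881 libraries lay below all vehicle libraries of their arm, and the log2 fold changes were -1.92 ± 0.18, -1.38 ± 0.18 and -2.37 ± 0.21 (edgeR adjusted p 3.5e-07, 1.8e-05 and 2.0e-07). In bulk RNA such a fall cannot be told apart from fewer cells that express the gene. The difference of the RCOR1 from the control siRNA response was 0.99 ± 0.28 (edgeR adjusted p 0.14, DESeq2 adjusted p 0.049), and that of the UPF1 siRNA response 0.45 ± 0.28 (edgeR adjusted p 0.39).

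SLC30A7, which loads zinc into the secretory pathway, was higher with R1881. SLC30A7 had 96.7, 120 and 174 CPM with R1881 and 66.5, 84.5 and 93.4 CPM with vehicle in UPF1 siRNA cells, 87.9, 122 and 122 against 48.5, 46.7 and 62.2 CPM in RCOR1 siRNA cells, and 86.0, 130 and 137 against 70.8, 45.9 and 66.9 CPM in control siRNA cells. The groups did not overlap in any arm, with log2 fold changes of 0.68 ± 0.23, 1.08 ± 0.24 and 0.94 ± 0.24, all called by edgeR. The UPF1 siRNA call was lost without UPF1 vehicle replicate 1 or 2 or UPF1 R1881 replicate 3 (lowest value 0.42). SLC30A1 had log2 fold changes of 0.49 ± 0.18, 0.52 ± 0.18 and 0.46 ± 0.18 in UPF1, RCOR1 and control siRNA cells, with edgeR adjusted p of 0.034, 0.035 and 0.052, so control siRNA cells missed the threshold by little. SLC30A6 was called in RCOR1 siRNA cells alone (0.45 ± 0.15), and SLC30A5 in none (0.14 to 0.31). Both RCOR1 siRNA calls, SLC30A1 and SLC30A6, were lost without RCOR1 vehicle replicate 1 or 2 or RCOR1 R1881 replicate 2 or 3.

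The abundant SLC30A4 and SLC30A9 were called lower in UPF1 siRNA cells alone. SLC30A4 had 879, 1028 and 1135 CPM with R1881 and 1301, 1433 and 1491 CPM with vehicle in those cells (-0.47 ± 0.17), and SLC30A9 had 75.0, 97.4 and 158 CPM with R1881 and 145, 187 and 225 CPM with vehicle (-0.76 ± 0.27). Both calls were lost in edgeR without replicates 1 and 2 of UPF1 siRNA with R1881, where the values were -0.34 and -0.26 with adjusted p of 0.41 and 0.66. They were also lost without either of these libraries alone and without UPF1 vehicle replicate 2 or 3, as was SLC30A1 in UPF1 siRNA cells without UPF1 vehicle replicate 1, 2 or 3 or UPF1 R1881 replicate 2 or 3. In the other arms SLC30A4 had 917, 1136 and 1105 CPM with R1881 and 1155, 1082 and 1425 CPM with vehicle (RCOR1 siRNA), and 801, 1247 and 1254 CPM with R1881 and 1355, 923 and 1297 CPM with vehicle (control siRNA), with treatments that overlapped. SLC30A9 had 128, 170 and 179 CPM with R1881 and 124, 111 and 170 CPM with vehicle in RCOR1 siRNA cells, and 102, 168 and 176 CPM with R1881 and 148, 99.4 and 139 CPM with vehicle in control siRNA cells. These other SLC30A9 groups overlapped too. SLC30A5 had 76.8, 88.7 and 92.4 CPM with R1881 and 69.9, 78.9 and 84.7 CPM with vehicle in UPF1, 69.0, 73.0 and 83.5 against 59.4, 52.3 and 70.3 CPM in RCOR1, and 71.2, 85.6 and 86.0 against 69.7, 64.4 and 71.5 CPM in control siRNA cells.

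Metallothioneins were called in different arms and directions. MT2A, the main metallothionein of most cells, fell with R1881 in RCOR1 and control siRNA cells but had the same mean with both treatments in UPF1 siRNA cells. MT2A had 20.1, 19.8 and 18.4 CPM with R1881 and 21.1, 19.8 and 17.5 CPM with vehicle in UPF1 siRNA cells, 8.65, 8.24 and 10.01 against 14.3, 13.97 and 13.5 CPM in RCOR1 siRNA cells, and 10.9, 11.03 and 9.85 against 16.0, 21.1 and 14.4 CPM in control siRNA cells. The treatments did not overlap in RCOR1 and control siRNA cells, with log2 fold changes of -0.63 ± 0.13 and -0.70 ± 0.13 (edgeR adjusted p 0.0015 and 0.00042), against -0.001 ± 0.12 in UPF1 siRNA cells. The UPF1 siRNA response exceeded the control siRNA response by 0.70 ± 0.18 (edgeR adjusted p 0.0497). This was the only member called in that interaction, where 2.72% of all genes were called (1.35% higher and 1.37% lower), and the call was lost in 17 of 26 alternatives, with an adjusted p of 0.39 without replicates 1 and 2 of UPF1 siRNA with R1881 and of 0.016 with a GC correction, both in edgeR. At an unadjusted p below 0.05 there were 3 members, MT2A, SLC39A14 and SLC30A9 (19.6% of all genes).

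MT1F rose with R1881 in UPF1 siRNA cells and MT1G fell in RCOR1 siRNA cells. MT1F had 4.88, 7.35 and 5.78 CPM with R1881 and 2.30, 2.37 and 2.60 CPM with vehicle in UPF1 siRNA cells (1.30 ± 0.21, edgeR adjusted p 0.00015), 2.13, 2.28 and 2.44 against 2.06, 2.16 and 2.41 CPM in RCOR1 siRNA cells (0.05 ± 0.24), and 3.68, 3.36 and 2.17 against 1.92, 2.50 and 1.28 CPM in control siRNA cells (0.68 ± 0.24). The treatments overlapped in control siRNA cells, and that call was lost without control vehicle replicate 1 or 3, without control R1881 replicate 1 or 2 (lowest value 0.48), and in DESeq2 (adjusted p 0.061). MT1G had 5.13, 3.77 and 5.78 CPM with R1881 and 9.72, 9.22 and 7.95 CPM with vehicle in RCOR1 siRNA cells. Its R1881 libraries lay below its vehicle libraries (log2 fold change -0.87 ± 0.17, edgeR adjusted p 0.0010). In UPF1 siRNA cells MT1G had 12.4, 12.2 and 13.8 against 12.1, 10.4 and 8.88 CPM, and in control siRNA cells 7.35, 7.75 and 7.14 against 6.49, 8.39 and 5.59 CPM, with no call. The RCOR1 siRNA response of MT1G differed from that of control siRNA by -0.98 ± 0.24, with an adjusted p of 0.078 in edgeR and of 0.042 in DESeq2. MT1X had 28.7, 23.6 and 24.8 CPM with R1881 and 18.6, 20.4 and 16.0 CPM with vehicle in UPF1 siRNA cells (0.49 ± 0.14), a call lost without UPF1 vehicle replicate 3 or UPF1 R1881 replicate 1 (0.40 each), with -0.06 ± 0.15 and 0.12 ± 0.14 in RCOR1 and control siRNA cells. In RCOR1 siRNA cells MT1X had 11.6, 11.05 and 9.28 CPM with R1881 and 12.5, 10.9 and 9.88 CPM with vehicle, which overlap.

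Without replicates 1 and 2 of UPF1 siRNA with R1881, 7 of the 13 calls for R1881 in UPF1 siRNA cells stood in edgeR, where 17.9% of all genes were called. They were SLC39A10 (1.99), SLC39A6 (0.80), SLC39A7 (1.02), SLC39A8 (-1.23), SLC30A7 (1.07), SLC30A10 (-1.74) and MT1F (1.22). The calls lost were those of SLC39A4, SLC39A14, SLC30A4 and SLC30A9, with the values above, SLC30A1 (0.61, edgeR adjusted p 0.11) and MT1X (0.41, 0.19).

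In the interaction of RCOR1 siRNA and R1881, edgeR called 0 of the 22 members, where 0.767% of all genes were called (0.227% higher and 0.539% lower). At an unadjusted p below 0.05 there were 4 members, SLC39A8, SLC39A13, SLC30A10 and MT1G (10.2% of all genes). DESeq2 called 2, SLC30A10 and MT1G, and the share of all genes it called is not given here. A response called in one arm and not in another, such as that of SLC39A8, is therefore not shown by edgeR to differ between RCOR1 and control siRNA.

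**Figure D3:**
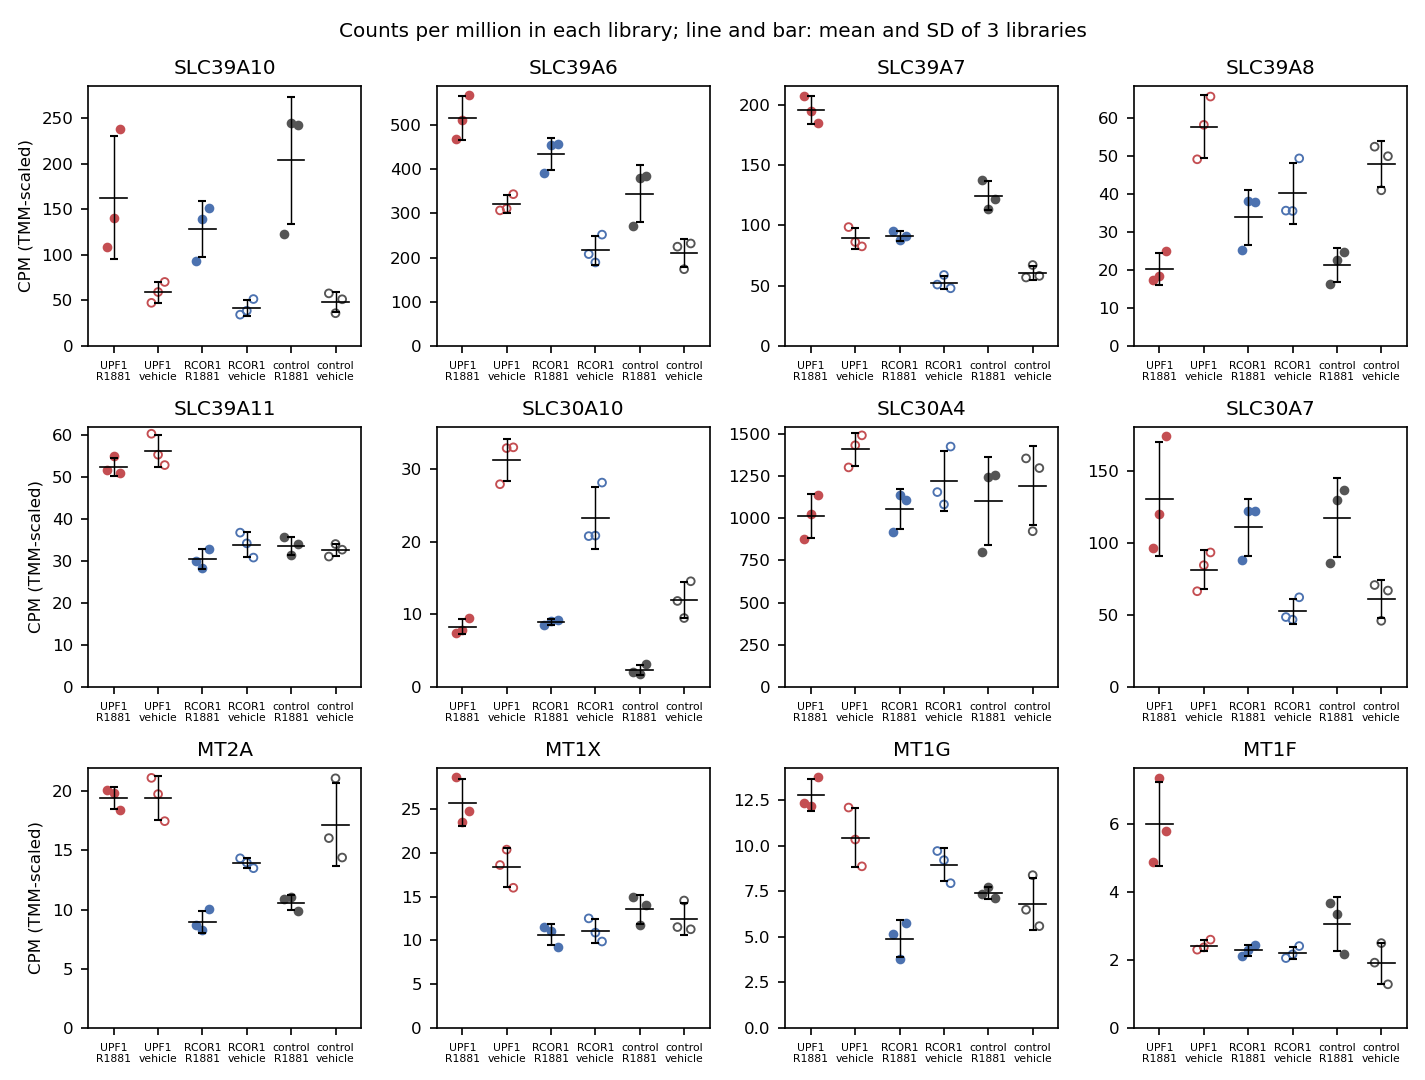
CPM (TMM-scaled, linear axis from 0) of 12 members in each of the 18 libraries, by group from UPF1 siRNA with R1881 (left) to control siRNA with vehicle (right); filled points are R1881, open points vehicle, and line and bar are mean and SD of 3 libraries. The panel of MT2A shows 18.4 to 20.1 CPM in UPF1 siRNA cells with R1881 against 9.85 to 11.03 CPM in control siRNA cells with R1881, and that of SLC30A10 shows the lowest values, 1.83 to 3.16 CPM, in control siRNA cells with R1881.

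The next question was what loss of UPF1 does to these genes. UPF1 siRNA cells had more RNA of 5 importers, of SLC30A10 and of metallothioneins than control siRNA cells. With R1881, 10 of 22 members were higher and 0 lower (17.6% and 15.7% of all genes, 33.3% in either direction), and with vehicle 8 were higher and 1 lower (18.5% and 16%, 34.6% in either direction). With R1881, 10 members had an unadjusted p below 0.05 in edgeR (43.5% of all genes). Between 10 and 12 were called with R1881 when any 1 library was left out. The share of all genes called in those fits is not given here, so that range is not read as a result about the members. SLC39A6, SLC39A7, SLC39A9, SLC39A11, SLC39A13, SLC30A10, MT1G and MT1X were called higher with both treatments, and the same 3 control libraries served each UPF1 and RCOR1 comparison of a treatment.

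Among importers, SLC39A11 (ZIP11), found in the Golgi and nucleus, and SLC39A13 (ZIP13), found in Golgi vesicles, were higher in UPF1 siRNA cells with both treatments, and neither was called for androgen in any arm. SLC39A11 had 51.5, 54.9 and 50.8 CPM with R1881 in UPF1 siRNA cells and 35.6, 31.4 and 33.9 CPM in control siRNA cells, and with vehicle 60.2, 55.2 and 52.8 CPM against 31.0, 34.0 and 32.6 CPM. The log2 fold changes were 0.64 ± 0.09 with R1881 and 0.78 ± 0.09 with vehicle (edgeR adjusted p 5.6e-05 and 5.2e-06), and no UPF1 siRNA library overlapped the controls. SLC39A13 was higher by 0.58 ± 0.13 with R1881 and by 0.82 ± 0.13 with vehicle. SLC39A9 had 439, 461 and 432 CPM with R1881 in UPF1 siRNA cells and 308, 327 and 326 CPM in control siRNA cells, and 441, 426 and 453 against 306, 329 and 333 CPM with vehicle. Its libraries were the tightest of the family, and the log2 fold changes of 0.47 ± 0.06 and 0.45 ± 0.06 had edgeR adjusted p of 1.6e-05 each. For SLC39A6 the log2 fold changes were 0.58 ± 0.14 with R1881 and 0.61 ± 0.14 with vehicle, and for SLC39A7 0.65 ± 0.10 and 0.55 ± 0.10. SLC39A14 was the member called lower, with vehicle (-0.22 ± 0.08), a call lost without control vehicle replicate 1 or 2 or UPF1 vehicle replicate 1 or 2.

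Exporters other than SLC30A10 were not called. SLC30A10 was higher in UPF1 siRNA cells by 1.84 ± 0.21 with R1881 and by 1.39 ± 0.17 with vehicle (edgeR adjusted p 1.2e-05 and 1.5e-05), on the library values given above, which do not overlap. The remaining ZnT genes had log2 fold changes from -0.44 to 0.15 with R1881 and from -0.24 to 0.53 with vehicle. Over the 7 ZnT genes the median was -0.12 with R1881 and 0.24 with vehicle, beside -0.003 and 0.03 over all genes. These values depended on the processing. With the GC correction described below, SLC30A7 was higher in UPF1 than in control siRNA cells with R1881, and SLC30A1 and SLC30A4 changed direction. The part of base composition in the ZnT values was not tested.

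All 4 metallothioneins that passed the filter were called higher in UPF1 siRNA cells with R1881. Of all genes, 17.6% were called higher with R1881 and 18.5% with vehicle. Reads of near-identical copies can be assigned to the wrong copy, so these 4 calls may not be separate observations. Their summed level was 63.9 ± 1.87 CPM (SD, n = 3) in UPF1 siRNA cells and 34.7 ± 1.98 CPM in control siRNA cells with R1881, and 50.7 ± 4.97 against 38.4 ± 7.29 CPM with vehicle. MT1X, with the values above in UPF1 siRNA cells, had 14.99, 11.8 and 14.004 CPM with R1881 and 11.5, 14.6 and 11.3 CPM with vehicle in control siRNA cells, and the UPF1 siRNA libraries lay above them with both treatments. The log2 fold changes with R1881 were 0.92 ± 0.14 for MT1X, 0.87 ± 0.13 for MT2A, 0.78 ± 0.16 for MT1G and 0.95 ± 0.21 for MT1F (edgeR adjusted p 0.00014, 0.00010, 0.0018 and 0.0027). With vehicle MT1X (0.55 ± 0.14) and MT1G (0.61 ± 0.16) were called, MT2A (0.18 ± 0.12) and MT1F (0.32 ± 0.24) were not, and the MT1G call was lost without UPF1 vehicle replicate 1 (0.48). The family median was 0.90 with R1881 and 0.44 with vehicle, beside -0.003 and 0.03 over all genes. Without replicates 1 and 2 of UPF1 siRNA with R1881, where edgeR called 11.7% of all genes, MT1X, MT2A and MT1G (0.81, 0.74 and 0.84), SLC39A6 (0.67), SLC39A7 (0.51), SLC39A9 (0.38), SLC39A11 (0.54) and SLC30A10 (1.99) stayed called, while MT1F (0.84) and SLC39A13 (0.52) had edgeR adjusted p of 0.068 and 0.11.

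**Figure D4:**
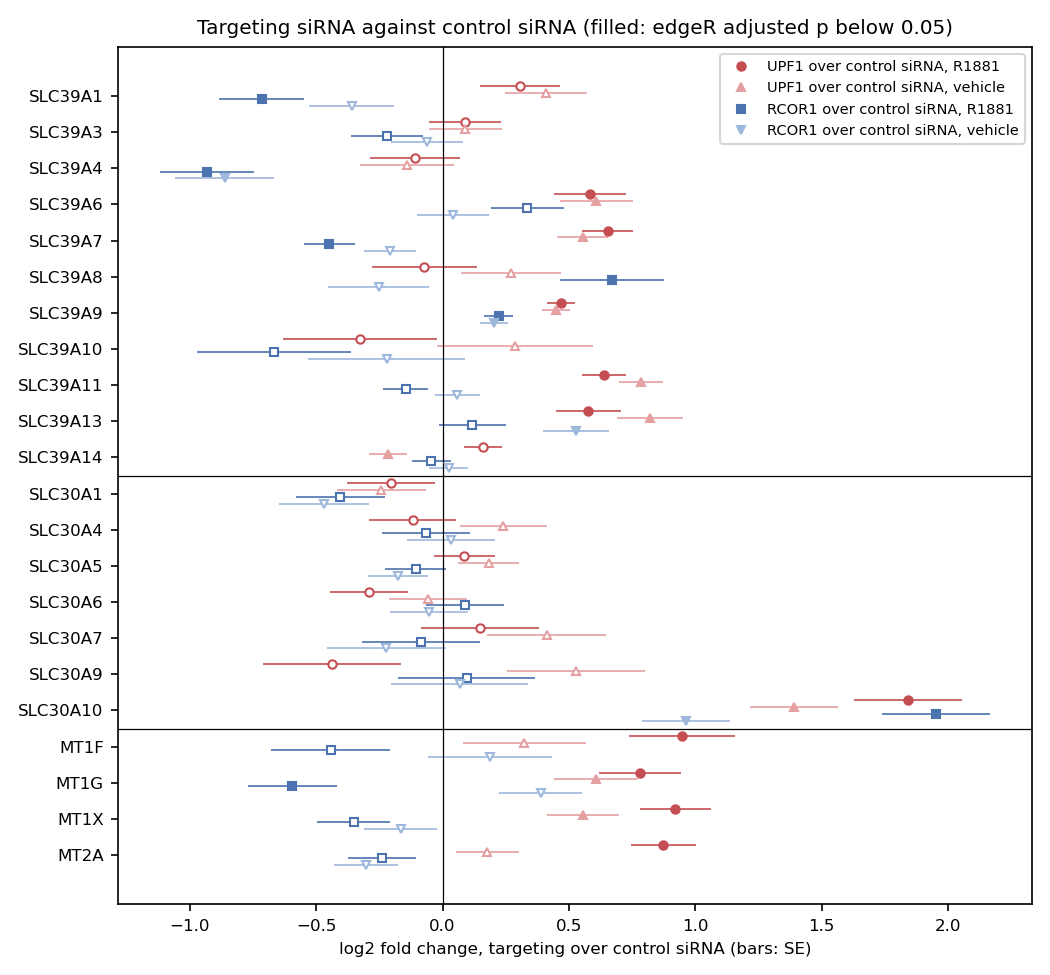
Log2 fold change of UPF1 siRNA (red) and RCOR1 siRNA (blue) over control siRNA (points, with SE as bars) for the 22 members, with R1881 (dark) and with vehicle (light); filled symbols had an edgeR adjusted p below 0.05. SLC30A10 lies to the right in all 4 comparisons (0.96 to 1.95), and the 4 metallothioneins lie right of 0 for UPF1 siRNA with R1881 (0.78 to 0.95).

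With RCOR1 siRNA fewer members were called, as were fewer of all genes. SLC30A10 was higher with both treatments, the importer SLC39A4 was lower with both, and SLC39A9 was slightly higher with both. With R1881, 3 of 22 members were higher and 4 lower (5.06% and 7.33% of all genes, 12.4% in either direction), and with vehicle 3 were higher and 1 lower (5.31% and 6.21%, 11.5% in either direction). SLC30A10 changed by 1.95 ± 0.22 with R1881 and by 0.96 ± 0.17 with vehicle (edgeR adjusted p 2.6e-05 and 0.0019), and every RCOR1 siRNA library lay above every control siRNA library of its treatment.

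SLC39A4 had 7.19, 6.40 and 5.62 CPM with R1881 in RCOR1 siRNA cells and 16.1, 10.1 and 10.4 CPM in control siRNA cells, and with vehicle 4.92, 4.12 and 4.42 CPM against 7.02, 9.36 and 8.16 CPM. The log2 fold changes were -0.93 ± 0.19 and -0.86 ± 0.19 (edgeR adjusted p 0.0037 and 0.0088), and the groups did not overlap. With only the groups compared, the SLC39A4 call with R1881 was lost. SLC39A9 had 364, 374 and 383 CPM with R1881 and 381, 358 and 375 CPM with vehicle in RCOR1 siRNA cells, all above the control siRNA libraries, with log2 fold changes of 0.22 ± 0.06 and 0.20 ± 0.06. With R1881 alone, SLC39A7 (-0.45 ± 0.10), SLC39A1 (-0.72 ± 0.17) and MT1G (-0.59 ± 0.18) were called lower and SLC39A8 (0.67 ± 0.21) higher. With vehicle alone, SLC39A13 (0.53 ± 0.13) was called higher. The remaining metallothioneins had -0.24 to -0.44 with R1881. With vehicle the 4 metallothioneins, MT1G included, had -0.30 to 0.39, and none was called. The highest of these was MT1G, with a mean of 8.96 CPM in RCOR1 siRNA and 6.83 CPM in control siRNA cells. The summed metallothionein level was 26.8 ± 1.25 CPM in RCOR1 siRNA and 34.7 ± 1.98 CPM in control siRNA cells with R1881. With vehicle it was 36.2 ± 2.45 against 38.4 ± 7.29 CPM (SD, n = 3).

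Several RCOR1 calls were near the threshold. With R1881 the count of 7 members called was 3 without control R1881 replicate 1 or without RCOR1 R1881 replicate 2. It was 4 without control R1881 replicate 2. The share of all genes called in those fits is not given here, so the counts are not read as results about the members. SLC30A10 was called with R1881 in all 26 alternatives. SLC39A7 was lost without control R1881 replicate 1 (-0.36), SLC39A1 without that library or RCOR1 R1881 replicate 2 (-0.65 and -0.57), and SLC39A8, MT1G and SLC39A9 were lost without any of 8, 6 and 5 single libraries. With vehicle, SLC39A4 and SLC30A10 were called in all 26. SLC39A13 was lost there without control vehicle replicate 1 or 3 or RCOR1 vehicle replicate 1 or 2. SLC39A9 was lost with vehicle without any of 7 single libraries, at values of 0.16 to 0.22. With only the groups compared, SLC30A10 was the only member called with R1881, and SLC39A4 and SLC30A10 the only members called with vehicle. The calls of SLC39A4, SLC39A7 and SLC39A1 with R1881 were therefore lost there too.

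Most members tracked the spread between libraries of 1 group, to differing degrees. Over the 18 libraries, the deviation of a member from its group mean had a Pearson r with the median deviation of the 2444 genes under 40% GC of 0.988 for SLC30A7, 0.983 for SLC39A10, 0.981 for SLC30A9, 0.966 for SLC39A8 and 0.939 for SLC30A4. Also positive were SLC30A6 (0.950), SLC39A6 (0.920), SLC30A1 (0.910), SLC30A5 (0.859) and SLC30A10 (0.685). GC-rich members went the other way to differing degrees, with -0.873 for SLC39A4, -0.863 for SLC39A7 and -0.692 for MT1X. Also negative were SLC39A3 (-0.865), SLC39A13 (-0.848), SLC39A1 (-0.621), SLC39A11 (-0.602) and MT2A (-0.522). The r was weaker for MT1G (-0.370) and MT1F (-0.186), which had 56.7% and 58.2% GC. SLC39A14 (-0.04) and SLC39A9 (0.133) showed little of either pattern. These r describe libraries that share depth, library preparation and base composition. With a GC correction the androgen response of SLC39A10 was 1.96, 1.36 and 1.94 in UPF1, RCOR1 and control siRNA cells, and that of SLC30A10 was -2.01, -1.45 and -2.43. After the same correction SLC30A7 was higher in UPF1 than in control siRNA cells with R1881 by 0.76, where it had been 0.15 ± 0.23 without it.

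**Figure D5:**
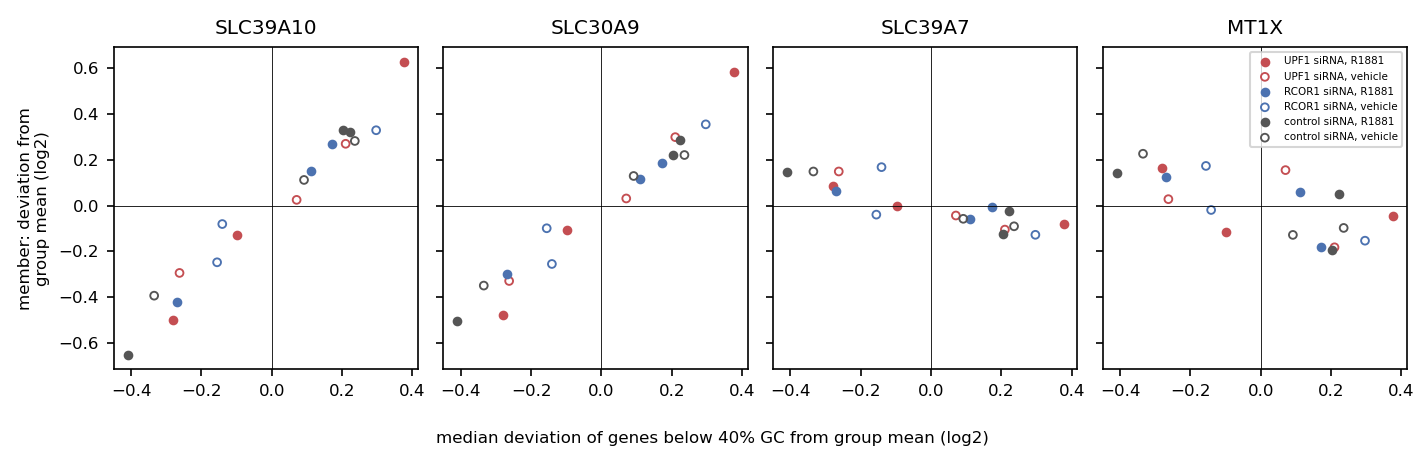
Deviation of a member from its group mean (log2, vertical) against the median deviation of genes under 40% GC from the same group means (log2, horizontal), 1 point per library, for SLC39A10, SLC30A9, SLC39A7 and MT1X; filled points are R1881, open points vehicle, red UPF1, blue RCOR1 and grey control siRNA. SLC39A10 and SLC30A9 follow the low-GC genes upwards (r 0.983 and 0.981 over 18 libraries), while SLC39A7 and MT1X slope downwards (-0.863 and -0.692).

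Genes around zinc outside the 3 families were read from a list of 16 sensing, signalling and minor transport genes, of which 12 passed the filter. With R1881, 4 were higher and 1 lower in UPF1, 3 higher and 0 lower in RCOR1, and 3 higher and 0 lower in control siRNA cells, with medians of 0.21, 0.14 and 0.22 beside -0.01, 0.02 and 0.02 over all genes. That was 41.7%, 25% and 25% of the list, where 41.6%, 31.2% and 37.7% of all genes were called. CBWD1, a member of the zinc chaperone family now named ZNG1 whose near-identical copies make its counts uncertain, had 220 ± 43.7, 153 ± 8.75 and 202 ± 25.8 CPM with R1881 and 59.8 ± 5.999, 49.5 ± 7.38 and 49.0 ± 5.63 CPM with vehicle in UPF1, RCOR1 and control siRNA cells (SD, n = 3). MTF1, the activator of metallothionein and SLC30A1 genes, rose by 0.34 ± 0.08, 0.24 ± 0.08 and 0.24 ± 0.08, and RREB1, a described repressor of zinc importer genes, by 0.29 ± 0.08, 0.40 ± 0.08 and 0.62 ± 0.08, all called by edgeR. Without replicates 1 and 2 of UPF1 siRNA with R1881, the UPF1 siRNA value of CBWD1 was 2.14 and stayed called, while MTF1 (0.33) and RREB1 (0.25) had edgeR adjusted p of 0.066 and 0.21. In UPF1 siRNA cells 1 was higher and 4 lower with R1881, and 1 higher and 1 lower with vehicle, 41.7% and 16.7% of the list beside 33.3% and 34.6% of all genes. SLC25A1, the mitochondrial citrate carrier, was lower there by -1.46 ± 0.12 and -1.61 ± 0.12, and PRNP, whose protein binds copper and zinc, was higher by 0.60 ± 0.09 and 0.42 ± 0.09. Both stayed called with R1881 without those 2 libraries (-1.61 and 0.53). In RCOR1 siRNA cells 0 were higher and 2 lower with each treatment, 16.7% of the list beside 12.4% and 11.5% of all genes, namely PRNP with -0.62 ± 0.10 and -0.67 ± 0.10 and CSNK2A1 with -0.29 ± 0.07 and -0.43 ± 0.07.

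Of 8 regulators known to raise metallothionein genes, all passed the filter. With R1881, 3 were higher and 3 lower in UPF1, 2 higher and 2 lower in RCOR1, and 3 higher and 2 lower in control siRNA cells. Those were 75%, 50% and 62.5% of a short list, beside 41.6%, 31.2% and 37.7% of all genes. NR3C1, the glucocorticoid receptor, which can raise MT2A, fell to 1.83 ± 0.561, 1.17 ± 0.429 and 0.823 ± 0.463 CPM with R1881, against 6.10 ± 0.377, 3.02 ± 0.140 and 1.75 ± 0.384 CPM with vehicle in UPF1, RCOR1 and control siRNA cells (SD, n = 3). It was higher in UPF1 than in control siRNA cells by 1.16 ± 0.36 with R1881 and 1.78 ± 0.28 with vehicle, while HIF1A was lower by -3.11 ± 0.39 and -1.44 ± 0.37. Without replicates 1 and 2 of UPF1 siRNA with R1881, the values with R1881 were 1.497 for NR3C1 and -2.55 for HIF1A, with edgeR adjusted p of 0.049 and 0.0070, and the androgen response of NR3C1 in UPF1 siRNA cells was -1.38 (0.022). UPF1 siRNA went with 1 higher and 3 lower regulators with R1881 and 1 higher and 2 lower with vehicle. That was 50% and 37.5% of the list, beside 33.3% and 34.6% of all genes. RCOR1 siRNA went with 0 higher and 1 lower with R1881 and 0 higher and 3 lower with vehicle. That was 12.5% and 37.5% of the list, beside 12.4% and 11.5% of all genes. STAT3 was among the lower genes with both treatments, at -0.53 ± 0.07 and -0.40 ± 0.07.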

How the data were processed

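Libraries were made from 500 ng of RNA each, without ribosomal RNA, per the labels. The authors deposited unnormalized read counts per gene. Per the submitters' processing notes, the authors used bcl2fastq 2.20, STAR 2.7.9a, GRCh38.p7 and featureCounts of Subread 1.6.4; their annotation release and strand setting: not given in the sources used here.

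Groups followed the labels. In R 4.3.3, edgeR 4.0.16 was used: filterByExpr by group, TMM scaling, 1 mean per group over 18 libraries, quasi-likelihood F tests of 9 contrasts, and Benjamini-Hochberg adjustment over 15390 genes (called below 0.05). SE was taken as |log2 fold change| over √F. The steps were tested on simulated data. CPM are TMM-scaled. RPKM use union exon length, and GC the longest transcript, in GENCODE 29 (GRCh38). Floors are 3 counts and cover counting error only. Precision is limited by 3 libraries per group.

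Members and lists were chosen with earlier results of these data known. Library values are given for members called in any contrast with a log2 change of 1 or more in size and for the 3 most abundant per family. From each gene list (zinc sensing and minor routes, copper and iron, other metallothionein loci, metallothionein regulators), counts and the called genes with the largest change are given. An item of the regulator list is not reported here by name. A few further members were named after their values were seen. Alternatives were RLE scaling, library size alone, no filter, a filter of 1 CPM in 3 libraries, DESeq2 1.42.0, only the groups compared, a GC correction (spline with 5 degrees of freedom), leaving out UPF1 siRNA with R1881 replicates 1 and 2 together, and leaving out each of 18 libraries.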

Additional observations from a re-analysis of the deposited data

Results flagged for a closer look

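The response of MT2A to R1881 differed between UPF1 siRNA and control siRNA cells by the test of the difference itself. Its log2 fold change was -0.001 ± 0.12 in UPF1 siRNA cells and -0.70 ± 0.13 in control siRNA cells (SE), a difference of 0.70 ± 0.18 with an edgeR adjusted p of 0.0497. Over the 26 alternatives the adjusted p lay between 0.016 and 0.39 in edgeR or DESeq2, and 17 of them lost the call, so the result stands at the threshold.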

How the results depend on the processing

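With a filter of 1 CPM in 3 libraries no member changed its call. Of 22 members, 9 were called for R1881 in control siRNA cells and 14 with the GC correction, where the share of all genes called was 48.4% in place of 37.7%. For R1881 in UPF1 siRNA cells 13 were called, and 7 without UPF1 siRNA with R1881 replicates 1 and 2 together (17.9% of all genes in place of 41.6%). With only the groups compared, RCOR1 siRNA gave 2 calls with vehicle in place of 4, and 1 with R1881 in place of 7 (5.14% and 5.35% of all genes in place of 11.5% and 12.4%). The interaction of UPF1 siRNA and R1881 (1 call) gave 0 with RLE scaling, with only the groups compared and without those 2 libraries, 2 each with library size alone, no filter and DESeq2, and 7 with the GC correction (11.7% of all genes in place of 2.72%). That of RCOR1 siRNA (0 calls) gave 1 with no filter, 2 with DESeq2 and 3 with the GC correction (3.26% in place of 0.767%). For library size alone, no filter and DESeq2 the share of all genes called in the interactions is not given here. Those counts are therefore not read as results about the members. Leaving out each library in turn gave 7 to 10 calls for R1881 in control, 8 to 14 in UPF1 and 7 to 11 in RCOR1 siRNA cells. It gave 7 to 10 for UPF1 siRNA with vehicle and 10 to 12 with R1881, and 3 to 6 for RCOR1 siRNA with vehicle and 3 to 7 with R1881. For the interactions it gave 0 to 3 with UPF1 and 0 to 1 with RCOR1 siRNA. The 4 reversals all came from the GC correction: SLC30A1 (0.31) and SLC30A4 (0.22) for UPF1 siRNA with R1881, and SLC39A6 (0.27) and SLC30A7 (0.48) in the interaction of UPF1 siRNA and R1881, each below 0 and not called without it. The cause of these changes was not tested. Over all members and alternatives, 4941 values kept their direction and call, 133 lost the call, 70 gained it and 4 reversed. No paired analysis was possible because the labels carry no replicate numbers. Genes under about 10 CPM, among them MT1F, SLC39A1 and SLC39A4, rest on the fewest reads.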

Other observations

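Genes of copper and iron transport and storage were read from a list of 16, all tested. R1881 went with 5 higher and 2 lower in UPF1, 6 higher and 2 lower in RCOR1 and 5 higher and 0 lower in control siRNA cells, which was 43.8%, 50% and 31.2% of the list beside 41.6%, 31.2% and 37.7% of all genes. STEAP4, a reductase of iron and copper, had 122 ± 17.6, 52.0 ± 8.74 and 115 ± 35.7 CPM with R1881 in UPF1, RCOR1 and control siRNA cells, against 0.283 ± 0.0976 and 0.0916 ± 0.0291 CPM with vehicle in UPF1 and RCOR1 siRNA cells (SD, n = 3) and 0 counts in every control siRNA library with vehicle. UPF1 siRNA went with 1 higher and 4 lower with R1881 and with 5 higher and 2 lower with vehicle, 31.2% and 43.8% of the list beside 33.3% and 34.6% of all genes. SLC31A1 (CTR1), the copper importer, was at 117 ± 3.87 CPM in UPF1 siRNA and 262 ± 11.3 CPM in control siRNA cells with R1881, and at 68.4 ± 5.16 against 185 ± 6.30 CPM with vehicle, log2 fold changes of -1.17 ± 0.07 and -1.44 ± 0.07 (SE). Without replicates 1 and 2 of UPF1 siRNA with R1881, the first was -1.21 and stayed called, as did the androgen response of STEAP4 in UPF1 siRNA cells. RCOR1 siRNA went with 1 higher and 2 lower with R1881 and 1 of each with vehicle, 18.8% and 12.5% of the list beside 12.4% and 11.5% of all genes. HMOX1, which frees iron from haem, was higher there by 1.28 ± 0.26 with R1881 and 1.80 ± 0.26 with vehicle. In the interactions 0 were higher and 1 lower for UPF1 siRNA, STEAP1 with -0.87 ± 0.19 (2.72% of all genes were called; without those 2 libraries STEAP1 had -0.58 and an edgeR adjusted p of 0.31), and edgeR called 0 for RCOR1 siRNA, with 2 at an unadjusted p below 0.05 (0.767% and 10.2% of all genes).

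A pair of members below the filter had calls when no filter was used. SLC30A2, a vesicle zinc transporter, had 20, 5 and 13 reads with R1881 and 2, 4 and 1 with vehicle, summed over 3 libraries each of UPF1, RCOR1 and control siRNA cells, with an edgeR adjusted p of 0.016 and 0.034 in UPF1 and control siRNA cells. SLC39A2 had 5 reads with R1881 and 32 with vehicle in RCOR1 siRNA cells, against 1 and 5 in control siRNA cells; without a filter its edgeR adjusted p was 0.016 for R1881 in RCOR1 siRNA cells and 0.029 for RCOR1 siRNA with vehicle.

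The tested genes whose 6 group means followed a member most closely (Pearson r of log2(CPM + 0.5), a description) were TNFRSF10B and CAP2 for SLC39A10 (0.998 each), IGSF9 and LINC02542 for SLC30A10 (0.994 each), and ORMDL3 and DLG3 for MT2A (0.994 and 0.993).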
